A study of Fukomys damarensis and Heterocephalus glaber and Cavia porcellus with 28 samples.

Results

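The livers of the naked mole-rat and the Damaraland mole-rat were compared across all genes of the deposited liver table. Both are subterranean African rodents that live in colonies with a single breeding female and are long-lived for their size. The naked mole-rat group held 4 livers, from males aged 13, 14, 15 and 17 months. The Damaraland mole-rat group held 5 livers, from animals aged 36 months (replicates 1, 2 and 3) or 48 months (replicates 4 and 5), and replicate 4 was the only female. The heart label of the animal behind liver replicate 3 gives 48 months, against 36 months in its liver label. Species and age therefore cannot be told apart here. The labels name a separate animal for each library of a group and give no treatment or genetic change. Hearts of both species serve as a second tissue: 3 naked libraries, from males of 13, 15 and 17 months, and 5 Damaraland libraries, from males of 36 or 48 months. Livers of 3 guinea pigs (2.3 months) and 2 mice (2 months), all male, are used for the share of mitochondrial reads and for 1 alternative fit.

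Total RNA was sequenced after removal of ribosomal RNA. The deposited values are variance-stabilised, on a scale close to log2 for abundant genes, and are used here as given. A gene with 0 reads has the value 4.2893, called the minimum below. Genes were kept where their mean over the 9 libraries was at least 1 above it, a filter value of 5.29, which left 10822 of 13928 genes. A further 3094 genes were under the filter, and the 12 mt- genes were set apart. Just outside stood Vmo1 and L1cam, with means of 5.2887 and 5.2889, and just inside Frmpd1 and Camk2a, with 5.2898 and 5.2902. Differences are naked minus Damaraland on this scale, with the limma standard error (SE), and adjusted p-values are from limma with Benjamini-Hochberg adjustment over all genes tested. A call required both an adjusted p below 0.05 and a difference of 1 or more, in either direction. The scale shrinks differences of rare genes: doubling 10 reads moved a value by 0.392, and doubling 1000 reads by 0.973. Values carry no correction for gene length, so levels are never compared between genes. Levels of 1 gene are compared between species, and whether its measured length differs between them was not checked.

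Reads recovered from the values came to 12359041 to 20686892 per naked library and 11704633 to 18044619 per Damaraland library. Genes at 0 reads made up 11.47% to 13.38% and 10.07% to 12.61% of the table. The mean Spearman correlation with the other libraries of the group was 0.983 to 0.986 in the naked and 0.973 to 0.983 in the Damaraland mole-rat, lowest in Damaraland replicate 5. The tissue label was checked with hepatocyte markers. Albumin (Alb) read 20.87, 21.33, 20.83 and 20.24 in the naked livers and 20.50, 20.72, 20.51, 20.87 and 20.42 in the Damaraland ones, and transthyretin (Ttr) 15.37, 15.57, 14.90 and 15.61 against 15.72, 15.82, 15.78, 15.99 and 15.20. Both species thus carried these 2 markers at similar levels, with differences of 0.21 (SE 0.34) and -0.34 (SE 0.21), neither of them called. Of the 11 hepatocyte markers tested, 2 were called higher in the naked livers, Cyp2e1 (6.58) and Tat (1.66), and 0 lower.

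Hepatocytes make most plasma proteins, build and export lipoproteins, turn cholesterol into bile acids, detoxify ammonia through the urea cycle, and store glucose as glycogen. They also break down drugs and steroids with cytochrome P450 enzymes and their partners. Most of these functions are carried by genes that are abundant in liver RNA.

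Of the genes tested, 3772 were called (34.9%), of which 1814 were higher in the naked mole-rat (16.8%) and 1958 lower (18.1%). By the adjusted p alone, 7451 passed (68.9%). The values of the 2 species did not overlap for 6236 genes (57.6%), and for 3680 of the 3772 calls (97.6%). Among calls, 2542 differed by 1 to 2, 1045 by 2 to 4, 153 by 4 to 6, and 32 by more. The median difference of all genes was -0.03 and the median absolute difference 0.69, with a median SE of 0.17. Each list of genes below is therefore read against 34.9%.

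**Figure D1:**
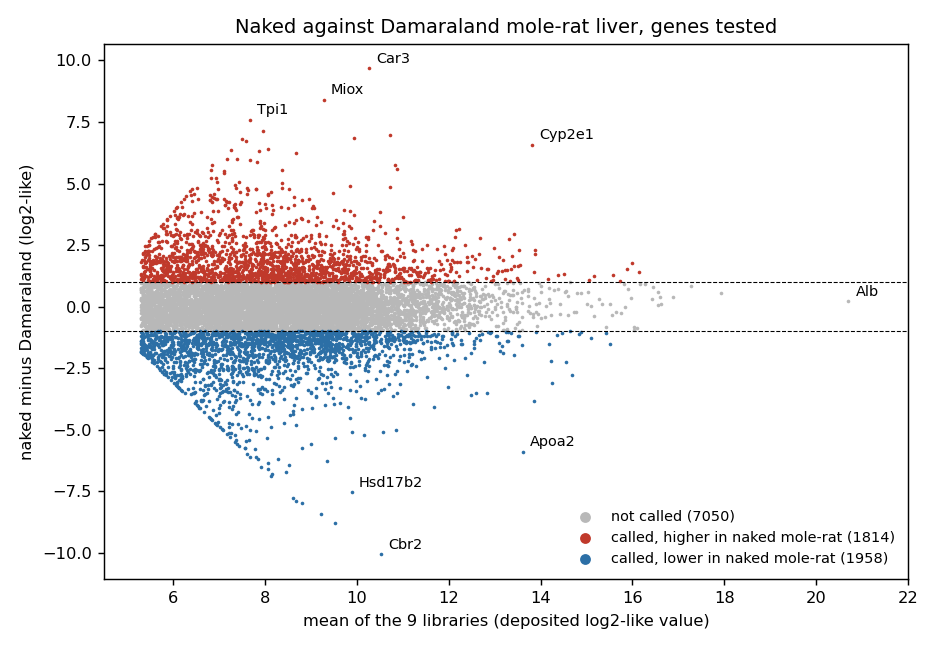
Each point is a gene: the horizontal axis is its mean over the 9 liver libraries and the vertical axis the naked minus Damaraland difference, both on the deposited log2-like scale. Red and blue points are the 1814 and 1958 calls, dashed lines mark differences of 1 and -1, and the calls spread over the whole range of means up to differences of 9.68 and -10.07.

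The largest differences in favour of the naked mole-rat were led by Car3, a cytosolic carbonic anhydrase abundant in liver, muscle and fat of many rodents. Car3 read 15.66, 16.09, 15.20 and 15.57 in the naked livers and 6.46, 5.79, 5.92, 5.62 and 5.97 in the Damaraland livers. The groups stood 9.68 (SE 0.20, adjusted p = 4e-13) apart, a 1706-fold difference in scaled reads. Miox, which opens the ring of inositol and is best known from kidney, read 13.99, 14.70, 13.42 and 13.66 against 5.98, 5.31, 5.40, 5.42 and 5.63, a difference of 8.40 (SE 0.23, adjusted p = 4.42e-12). In all 4 naked livers it lay far above every Damaraland liver. Crym, a cytosolic binder of thyroid hormone, read 14.48, 14.42, 14.61 and 14.87 against 7.68, 7.58, 7.84, 7.92 and 7.16, which gave 6.96 (SE 0.17, adjusted p = 1.45e-12). Cyp7b1, which hydroxylates oxysterols on the way to bile acids, read 12.31, 12.43, 12.07 and 11.71 against 6.09, 5.94, 5.65, 5.94 and 5.83, or 6.24 (SE 0.16, adjusted p = 2.64e-12). Saa4, the constitutively made serum amyloid A, read 13.99, 14.08, 14.02 and 13.82 against 8.13, 8.90, 8.14, 8.78 and 8.05, or 5.57 (SE 0.19, adjusted p = 3.16e-11). For each of these genes the spread within a species was small beside the gap between them. The rule that picked them took the largest differences without overlap, so this separation follows from the choice.

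Some of the largest differences went with a wide Damaraland spread. Moxd1, a copper monooxygenase related to dopamine beta-hydroxylase, read 13.91, 13.94, 14.29 and 13.95 in the naked livers. In the Damaraland livers it read 6.61, 9.79, 6.35, 9.41 and 9.18, so that replicates 1 and 3 were about 3 below the others. The difference was 5.75 (SE 0.62, adjusted p = 2.53e-06). Cxcl12, a chemokine that holds blood stem cells and lymphocytes in their niches, showed the same 2 animals lowest. It read 12.55, 12.48, 12.53 and 12.73 against 6.50, 8.41, 7.05, 8.18 and 8.16, a difference of 4.91 (SE 0.33, adjusted p = 2.48e-08). Usp13, a deubiquitinating enzyme, was tight in both species, at 11.34, 11.00, 11.12 and 11.20 against 6.01, 6.03, 6.25, 6.12 and 6.30, and differed by 5.02 (SE 0.13, adjusted p = 2.27e-12).

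Genes far lower in the naked mole-rat were led by Hsd17b2, which oxidises estradiol and testosterone to less active steroids. Hsd17b2 read 6.34, 5.72, 5.31 and 5.38 in the naked livers and 13.08, 13.46, 13.19, 13.47 and 12.98 in the Damaraland livers, a difference of -7.55 (SE 0.20, adjusted p = 3.54e-12) and 435-fold in scaled reads. Pnpla3, a lipid droplet enzyme whose gene is a major locus of fatty liver in people, read 6.64, 8.17, 6.78 and 7.40 against 13.52, 12.02, 13.02, 11.62 and 12.12, or -5.21 (SE 0.38, adjusted p = 5.8e-08). Pon3, a lactonase carried on high-density lipoprotein, read 8.41, 8.19, 7.49 and 8.18 against 13.31, 13.02, 13.18, 13.33 and 12.49, or -5.00 (SE 0.21, adjusted p = 2.79e-10). Every naked liver was below every Damaraland liver for these genes, as the rule that picked them required. Gstt3, a glutathione transferase, read 6.81, 8.31, 8.18 and 7.66 against 12.93, 12.84, 12.92, 13.06 and 12.46, or -5.10 (SE 0.26, adjusted p = 1.61e-09). Gfra1, a receptor for glial cell line-derived neurotrophic factor, read 5.92, 6.27, 5.88 and 5.90 against 10.72, 10.98, 10.86, 11.00 and 10.53, or -4.83 (SE 0.14, adjusted p = 1e-11). Kif26a, an atypical kinesin, read 6.30, 6.52, 6.40 and 6.98 against 11.69, 11.84, 12.08, 11.67 and 12.18, or -5.34 (SE 0.17, adjusted p = 1.57e-11).

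For the other genes of this group the heart difference is given beside that in liver. Cnot1, the scaffold of the CCR4-NOT complex that shortens mRNA tails, read 7.19, 7.23, 7.10 and 6.71 against 12.02, 12.40, 11.98, 12.11 and 12.27 in liver, a difference of -5.10 (SE 0.15, adjusted p = 6.92e-12). Its heart difference was -4.68 (SE 0.22, adjusted p = 1.07e-08). Arhgef12, an activator of small GTPases, differed by -6.28 (SE 0.17, adjusted p = 3.22e-12) in liver and -4.36 (SE 0.20) in heart. Slc39a7, which releases zinc from the secretory pathway, differed by -5.60 (SE 0.18, adjusted p = 1.82e-11) in liver and -3.40 (SE 0.26) in heart. Epn1, an adaptor of clathrin-coated pits, differed by -4.91 (SE 0.22, adjusted p = 6.13e-10) in liver and -5.49 (SE 0.23) in heart. Avpi1, a gene induced by vasopressin, differed by -5.75 (SE 0.22, adjusted p = 1.1e-10) and -3.68 (SE 0.22). In liver the groups did not overlap for any of these genes, which was a condition of their choice. How genes were matched across species is not given in the sources used here, and whether that bears on these differences was not tested.

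**Figure D2:**
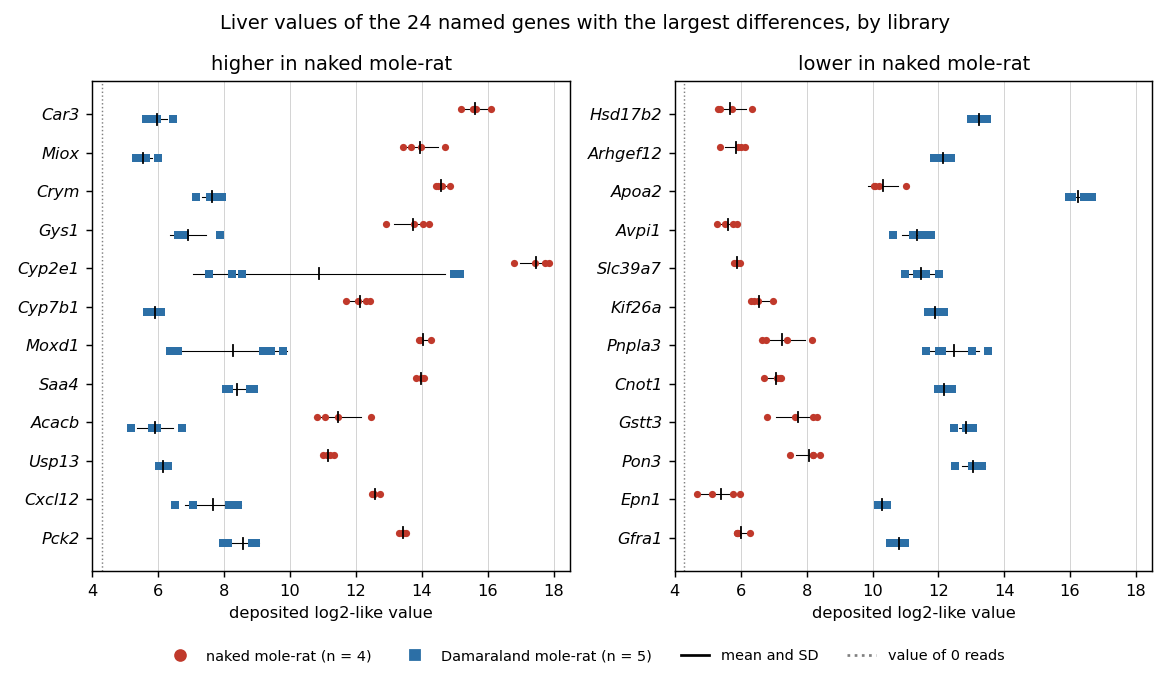
Liver values of the 24 genes with the largest differences among those above the minimum in both species: red circles are the 4 naked livers and blue squares the 5 Damaraland livers, bars the mean and SD, and the dotted line the value of 0 reads. The genes were picked with no overlap between the species required, so their separation follows from the choice. Cyp2e1 and Moxd1 show the widest Damaraland spread.

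In many calls 1 species stood near the minimum. Of the genes higher in the naked mole-rat, 295 (16.3%) had a Damaraland mean under 5.29, and 21 of them had 0 reads in every Damaraland liver. Of the genes lower in the naked mole-rat, 412 (21%) had a naked mean under 5.29, and 62 had 0 reads in every naked liver. In the heart table, 120 of the 295 (40.7%) and 180 of the 412 (43.7%) were again near the minimum in that species and above it in the other. Several are genes that nearly every cell uses. For these the text says only what is listed, since how genes were matched across species is not given in the sources used here.

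Tpi1, triosephosphate isomerase of glycolysis, was listed at 0 reads in all 5 Damaraland livers and at 11.72, 11.89, 12.09 and 11.81 in the naked livers. The naked level was at least 6568-fold higher than a floor of 3 reads over the Damaraland group, and Tpi1 was also at 0 reads in the Damaraland hearts. Rpl8 and Rps13, proteins of the large and small ribosomal subunit, were listed at 0 reads in all 4 naked livers and read 11.73 to 12.33 and 10.87 to 11.52 in the Damaraland livers. Ywhae, a 14-3-3 adaptor, had 1 read over the 4 naked livers. Hsp90aa1, the stress-inducible cytosolic HSP90, had 7 reads there, and Rpl4 3. In the Damaraland livers Hsp90aa1 read 13.82, 13.29, 13.64, 13.31 and 13.05. Dnaja1, an HSP40 co-chaperone, had 6 reads over the 5 Damaraland livers and read 11.61, 11.03, 11.81 and 10.81 in the naked ones. In heart Hsp90aa1 and Dnaja1 differed in the same direction, by -7.10 (SE 0.18) and 5.03 (SE 0.15).

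Other genes near the minimum in 1 species are specialised. Cbr2, a carbonyl reductase best known from mouse lung, read 15.99, 15.15, 15.37, 14.88 and 13.55 in the Damaraland livers and 4.29, 5.21, 5.07 and 5.11 in the naked livers, a difference of -10.07 (SE 0.38, adjusted p = 9.21e-11). Its heart difference was -0.97 (SE 0.36). Trpv6, an epithelial calcium channel, read 11.25, 12.15, 12.57 and 11.76 in the naked livers and 4.63, 4.73, 5.01, 4.29 and 5.28 in the Damaraland livers, or 7.14 (SE 0.25, adjusted p = 5.58e-11). Crp, the acute-phase C-reactive protein, read 10.89, 11.02, 11.96 and 11.23 against 4.29, 4.29, 4.56, 4.29 and 4.87, with 4 reads over all Damaraland livers. Tmem45b, a membrane protein gene, read 11.78, 11.85, 11.40 and 11.49 against 4.88, 5.16, 5.67, 5.16 and 5.17, or 6.42 (SE 0.17, adjusted p = 3.1e-12).

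Among 30 gene lists drawn from liver biology, the called share of tested members ran from 10.8% in proteasome subunits to 60.7% in xenobiotic enzymes. The 800 listed genes that were tested, each counted once, gave 160 higher and 131 lower calls (36.4%), close to the 34.9% of all genes. Only 4 of the 30 lists held a gene at 0 reads in a species. Setting such genes to the 3-read floor moved no list median. It could hardly have done so, since it kept the sign of differences that were already large.

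**Figure D3:**
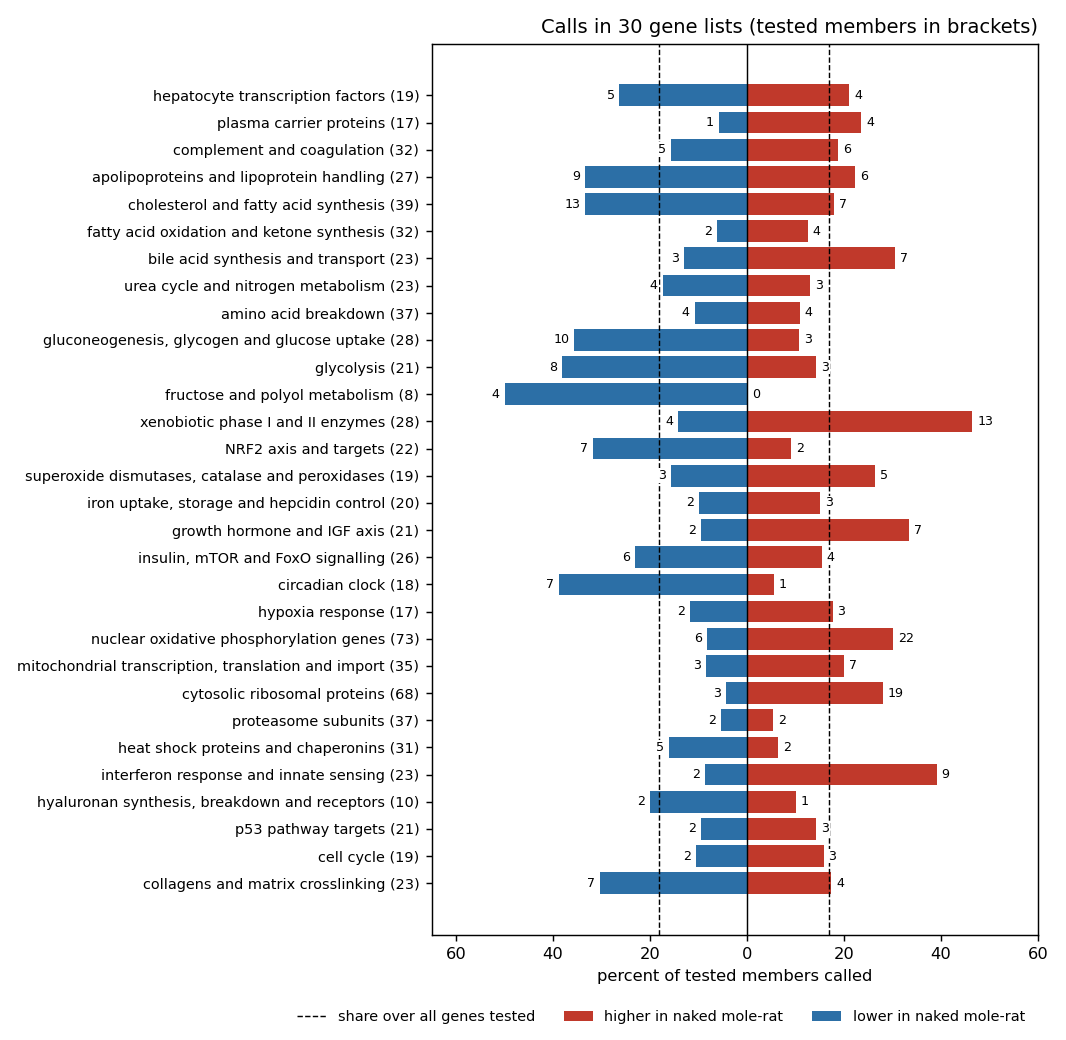
For each of 30 gene lists, the bar to the right is the percent of tested members called higher in the naked mole-rat and the bar to the left the percent called lower, with the number of genes at each end and the tested members in brackets. Dashed lines mark the shares over all genes tested, 16.8% and 18.1%; xenobiotic enzymes stand furthest to the right and fructose genes to the left.

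Transcription factors that set hepatocyte identity were called in 9 of 19 cases, 4 higher and 5 lower. Hnf4a, the central factor of the hepatocyte, read 13.69, 13.35, 13.31 and 13.30 against 13.45, 13.57, 13.49, 13.63 and 13.48 and was not called (-0.11, SE 0.14). Differences lay instead in its partners and in nuclear receptors. Foxa3, a pioneer factor, read 10.65, 10.56, 10.89 and 11.17 against 8.42, 9.33, 8.55, 9.20 and 9.27, or 1.86 (SE 0.21, adjusted p = 3.76e-06). Nr1h3, the liver X receptor that senses oxysterols, read 12.24, 12.26, 12.35 and 12.30 against 9.90, 10.52, 10.44, 10.37 and 10.73, or 1.89 (SE 0.16, adjusted p = 1.87e-07). Rxra, the shared partner of the metabolic nuclear receptors, went the other way at 11.08, 11.10, 11.50 and 11.09 against 13.25, 13.28, 13.09, 13.37 and 13.34, or -2.07 (SE 0.14, adjusted p = 2.06e-08). Onecut2 was also lower, by 1.59 (SE 0.15, adjusted p = 6.41e-07). Ppara, the receptor that drives fatty acid oxidation in fasting, differed by 0.34 (SE 0.16) and was not called.

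Of 17 plasma carrier genes, 4 were higher and 1 lower. Fetub, a liver-made protease inhibitor, read 14.06, 14.22, 14.03 and 14.52 against 11.95, 12.14, 12.30, 12.56 and 11.95, or 2.03 (SE 0.17, adjusted p = 1.9e-07). Itih3, a heavy chain that is joined to hyaluronan, read 16.97, 17.01, 16.80 and 17.10 against 14.49, 15.51, 14.77, 15.79 and 15.43, or 1.77 (SE 0.26, adjusted p = 4.06e-05). Of 32 complement and coagulation genes, 6 were higher and 5 lower. Mbl2, the mannose-binding lectin that starts the lectin pathway, was lower in the naked livers. It read 12.44, 12.81, 12.25 and 12.56 against 15.14, 15.81, 15.68, 16.03 and 15.47, or -3.11 (SE 0.20, adjusted p = 1.35e-08). F8, clotting factor VIII, was lower by 2.10 (SE 0.22, adjusted p = 1.61e-06). Vtn, vitronectin, was higher by 1.42 (SE 0.20, adjusted p = 2.37e-05), and C4bp, which restrains complement, by 1.81 (SE 0.22, adjusted p = 7.13e-06). The abundant C3 and fibrinogen beta chain (Fgb) stood 0.84 (SE 0.25) and 0.80 (SE 0.23) higher, under the size for a call.

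Apolipoproteins and lipoprotein handling held 6 higher and 9 lower calls among 27 genes. Apoa2, a main protein of high-density lipoprotein, read 10.05, 11.01, 10.08 and 10.19 in the naked livers and 15.98, 16.42, 16.07, 16.67 and 16.00 in the Damaraland livers, a difference of -5.90 (SE 0.22, adjusted p = 9.47e-11) and 60-fold in scaled reads. Apoa1, the chief protein of the same particle, read 14.04, 14.56, 14.50 and 15.46 against 14.65, 14.81, 14.83, 15.03 and 14.96 and was not called (-0.22, SE 0.24). The 2 proteins of this particle thus differed to unequal extents. Apoa4, which is induced by fat intake and fasting, read 11.14, 10.61, 12.33 and 12.75 against 16.11, 15.39, 15.90, 15.48 and 14.92, or -3.85 (SE 0.39, adjusted p = 1.18e-06). Apof and Apom, minor apolipoproteins, were higher by 2.51 (SE 0.22, adjusted p = 2.76e-07) and 2.03 (SE 0.33). Apoe differed by 0.57 (SE 0.29) and was not called.

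Vldlr, a receptor for triglyceride-rich particles, read 5.75, 5.67, 5.81 and 5.38 against 9.58, 9.32, 10.04, 9.96 and 9.03, or -3.94 (SE 0.20, adjusted p = 1.97e-09). Angptl8, an insulin-induced inhibitor of lipoprotein lipase, was lower in liver by 2.04 (SE 0.23, adjusted p = 3.99e-06) and higher in heart by 2.68 (SE 0.17, adjusted p = 1.39e-07).

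Sterol and fatty acid synthesis genes are switched on by SREBP factors, which INSIG proteins hold in the endoplasmic reticulum when sterols are plentiful. Of 39 such genes, 13 were lower in the naked mole-rat and 7 higher (51.3% called, median difference -0.38 against -0.03 over all genes). Srebf1, the factor of fatty acid synthesis, read 10.55, 11.36, 9.76 and 11.59 against 12.45, 12.42, 12.52, 11.00 and 12.81, or -1.42 (SE 0.39, adjusted p = 0.00554), with overlap because Damaraland replicate 4 was lowest of its group. Srebf2, the factor of sterol synthesis, differed by -0.07 (SE 0.17). Insig1 and Insig2 were both lower without overlap. Insig1 read 12.33, 12.58, 11.95 and 12.44 against 14.34, 14.25, 14.46, 13.86 and 14.49, or -1.95 (SE 0.18, adjusted p = 4.23e-07). Insig2 read 9.54, 9.20, 9.73 and 9.24 against 11.87, 11.92, 12.08, 12.32 and 11.99, or -2.61 (SE 0.15, adjusted p = 5.25e-09).

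Several enzymes of sterol synthesis were among the lower calls. Lss, which closes the sterol rings, read 10.10, 10.97, 11.44 and 10.94 against 12.56, 13.15, 12.67, 12.90 and 12.87, or -1.96 (SE 0.23, adjusted p = 4.64e-06). Mvd, an earlier step, was lower by 1.94 (SE 0.25, adjusted p = 1.33e-05), and Ebp, a late isomerase, by 2.27 (SE 0.22, adjusted p = 6.88e-07). Hsd17b7 and Idi1 were lower too, by 2.07 (SE 0.20) and 1.22 (SE 0.18).

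Fatty acid synthesis showed opposite differences in 2 enzymes that make the same product. Acacb, the acetyl-CoA carboxylase of the mitochondrial surface, whose malonyl-CoA restrains fatty acid oxidation, read 10.83, 11.47, 12.45 and 11.06 against 5.95, 5.81, 5.87, 5.16 and 6.71, or 5.56 (SE 0.33, adjusted p = 7.09e-09). Acaca, the cytosolic form that feeds synthesis, read 12.14, 13.15, 12.77 and 12.75 against 14.01, 13.59, 13.79, 13.24 and 14.14, or -1.05 (SE 0.22, adjusted p = 0.000932). The Acaca call was lost when single libraries were left out, at -0.86 without naked replicate 1, -0.99 without Damaraland replicate 1 and -0.95 without Damaraland replicate 5. Fasn, fatty acid synthase, read 13.92, 15.25, 14.79 and 15.41 against 16.23, 15.86, 15.94, 15.20 and 16.26, or -1.06 (SE 0.31, adjusted p = 0.00752), with overlap. The Fasn call was lost when single libraries were left out, at -0.75 without naked replicate 1, -0.97 without Damaraland replicate 1 and -0.96 without Damaraland replicate 5. Chain-length and desaturation enzymes also differed. Elovl6, which lengthens saturated chains, was lower by 3.60 (SE 0.28, adjusted p = 9.82e-08), at 9.87, 10.87, 10.19 and 10.99 against 14.35, 14.14, 14.46, 13.21 and 14.24. Elovl5 and Fads1, which make polyunsaturated chains, were higher by 2.25 (SE 0.24) and 2.49 (SE 0.42). Me1, malic enzyme, a source of NADPH for synthesis, read 9.47, 9.95, 9.72 and 9.44 against 12.83, 11.75, 12.70, 12.30 and 11.67, or -2.60 (SE 0.24, adjusted p = 4.71e-07). Agpat2, an enzyme of triglyceride assembly, was higher by 2.62 (SE 0.22, adjusted p = 1.72e-07).

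**Figure D4:**
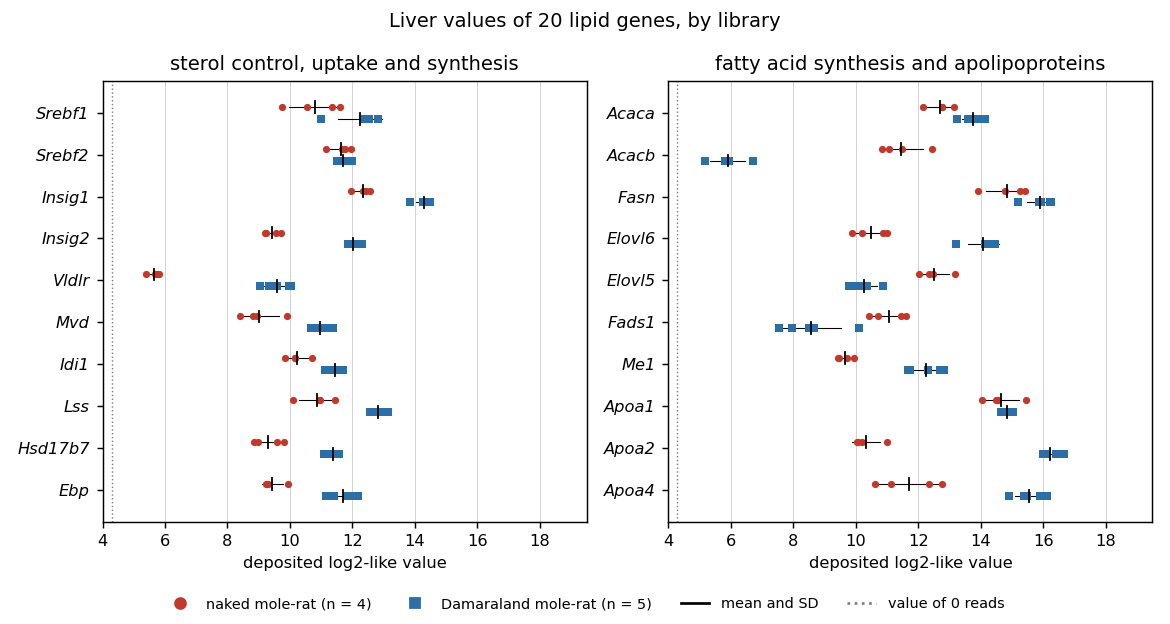
Liver values of 20 lipid genes on the deposited log2-like scale: red circles are the 4 naked livers, blue squares the 5 Damaraland livers, bars the mean and SD. Insig1, Insig2, Vldlr, Lss, Ebp, Hsd17b7, Idi1, Elovl6 and Apoa2 lie lower in every naked liver, Acacb, Elovl5 and Fads1 higher, and Srebf2 overlaps.

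Fatty acid oxidation and ketone synthesis held 4 higher and 2 lower calls among 32 genes (18.8% called). Cpt1a, the carnitine gate into mitochondria, differed by 0.09 (SE 0.29). Acsl1, which activates long-chain fatty acids, was lower, at 12.97, 13.56, 13.15 and 12.92 against 16.11, 15.89, 16.02, 15.97 and 15.61, or -2.77 (SE 0.18, adjusted p = 1.76e-08). Decr1, an auxiliary enzyme for unsaturated chains, was higher in liver by 2.25 (SE 0.15, adjusted p = 2.01e-08) and lower in heart by 2.12 (SE 0.20, adjusted p = 3.24e-06).

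Bile acids are made from cholesterol by a classical route through CYP7A1 and an acidic route through CYP7B1. Of 23 bile acid genes, 7 were higher in the naked mole-rat and 3 lower. Against the large Cyp7b1 difference given above, Cyp7a1, the rate-limiting enzyme of the classical route, read 11.14, 12.22, 12.35 and 11.94 against 10.15, 11.99, 10.56, 11.14 and 10.39. It was called at 1.07 (SE 0.34, adjusted p = 0.0135) with overlap. The Cyp7a1 call was lost when single libraries were left out, at 0.96 without naked replicate 2, 0.92 without naked replicate 3, 0.89 without Damaraland replicate 1, 0.995 without Damaraland replicate 3 and 0.95 without Damaraland replicate 5. Hsd3b7, the next step for both routes, was lower by 1.73 (SE 0.18, adjusted p = 1.3e-06), and Akr1d1, the reductase after it, by 1.49 (SE 0.27, adjusted p = 0.000254). Amacr, which handles the side chain, was higher by 2.79 (SE 0.32, adjusted p = 4.3e-06). Among transporters, Slco2b1, an uptake carrier of organic anions, read 11.00, 11.34, 10.98 and 10.88 against 6.46, 6.54, 5.80, 5.76 and 6.61, or 4.81 (SE 0.20, adjusted p = 2.54e-10). Abcc3, which exports bile acid conjugates back to blood, read 13.63, 13.87, 14.08 and 13.91 against 9.22, 10.30, 10.07, 11.53 and 12.71, or 3.10 (SE 0.52, adjusted p = 0.000142). The canalicular pump Abcb11 differed by -0.36 (SE 0.15) and was not called.

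Urea cycle and nitrogen genes held 3 higher and 4 lower calls among 23. Along the cycle, Cps1, which fixes ammonia, stood 0.92 (SE 0.19, adjusted p = 0.000679) higher and was not called for size. Otc differed by 0.31 (SE 0.18). Ass1, which joins citrulline and aspartate, read 15.11, 15.45, 15.31 and 15.07 against 13.72, 14.08, 13.68, 14.26 and 13.86, or 1.31 (SE 0.17, adjusted p = 1.45e-05). Asl, which follows it, differed by -0.99 (SE 0.19, adjusted p = 0.000381), just under the size for a call. Arg1, which releases urea, was higher by 1.06 (SE 0.19, adjusted p = 0.000227). The Arg1 call was lost when single libraries were left out, at 0.98 without naked replicate 4 and 0.998 without Damaraland replicate 5. Slc25a15, the carrier that returns ornithine to mitochondria, was lower in the naked livers, at 9.41, 9.70, 10.37 and 10.18 against 12.18, 11.88, 12.46, 12.57 and 12.08, or -2.32 (SE 0.21, adjusted p = 3.52e-07).

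Of 37 genes of amino acid breakdown, 4 were higher and 4 lower, a called share of 21.6%. Sds, serine dehydratase, read 6.02, 5.62, 5.68 and 7.05 against 10.88, 10.63, 11.06, 10.89 and 9.11, or -4.42 (SE 0.38, adjusted p = 2.75e-07). Its relative Sdsl went the other way by 2.13 (SE 0.20, adjusted p = 5.04e-07). Tdo2, which opens tryptophan breakdown, was lower by 2.17 (SE 0.30, adjusted p = 2.26e-05), and Tat, its counterpart for tyrosine, was higher by 1.66 (SE 0.21, adjusted p = 1.32e-05). Amdhd1, of histidine breakdown, was higher by 2.52 (SE 0.15, adjusted p = 9.86e-09).

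Gluconeogenesis, glycogen and glucose uptake genes gave 10 lower and 3 higher calls among 28. The 2 forms of phosphoenolpyruvate carboxykinase differed in opposite directions. Pck2, the mitochondrial form, read 13.46, 13.39, 13.31 and 13.51 against 8.98, 8.90, 8.86, 7.97 and 8.11, or 4.86 (SE 0.21, adjusted p = 3.65e-10). Pck1, the cytosolic form, read 13.39, 13.52, 13.64 and 14.87 against 15.09, 14.53, 15.24, 15.18 and 14.67, or -1.08 (SE 0.28, adjusted p = 0.00397), with overlap because naked replicate 4 was highest of its group. The Pck1 call was lost when single libraries were left out, at -0.93 without naked replicate 1 and -0.97 without naked replicate 2. G6pc, which releases free glucose, read 11.22, 11.21, 10.81 and 12.52 against 13.77, 12.35, 13.36, 12.42 and 12.86, or -1.51 (SE 0.35, adjusted p = 0.00173), again with overlap and naked replicate 4 highest.

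Glycogen synthase showed a difference of isoform. Gys1, the muscle-type form, read 14.05, 14.23, 12.91 and 13.75 in the naked livers and 6.63, 6.80, 6.61, 6.62 and 7.88 in the Damaraland livers, a difference of 6.83 (SE 0.30, adjusted p = 3.62e-10) and 156-fold in scaled reads. Gys2, the liver form, read 12.05, 11.97, 12.17 and 11.81 against 11.36, 10.89, 11.22, 11.10 and 10.89. Its difference of 0.91 (SE 0.14, adjusted p = 6.69e-05) was under the size for a call. In heart Gys1 differed by 0.45 (SE 0.20) and was not called. Pygl, the liver phosphorylase that breaks glycogen down, was lower, at 13.15, 13.13, 13.72 and 13.21 against 15.55, 15.33, 15.38, 16.08 and 15.47, or -2.26 (SE 0.20, adjusted p = 2.98e-07). Pfkfb4, a bifunctional regulator of glycolytic flux, was lower by 2.59 (SE 0.17, adjusted p = 2.22e-08).

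Glycolysis gave 8 lower and 3 higher calls among 21 genes, the higher ones including Tpi1, described above. Pklr, the liver pyruvate kinase, read 10.81, 11.13, 11.46 and 11.53 against 13.23, 12.44, 12.85, 12.58 and 12.82, or -1.55 (SE 0.19, adjusted p = 8.2e-06). Pdk1, which inhibits pyruvate dehydrogenase, read 7.95, 7.83, 7.43 and 8.47 against 10.30, 11.18, 10.36, 10.79 and 10.62, or -2.73 (SE 0.22, adjusted p = 1.33e-07), and its heart difference was -5.02 (SE 0.29). Eno3, the muscle enolase, was lower by 2.68 (SE 0.35, adjusted p = 1.68e-05), and Pgk1 higher by 1.45 (SE 0.15, adjusted p = 1.28e-06). Of 8 fructose and polyol genes, 4 were lower and 0 higher. Khk, ketohexokinase, which commits fructose to breakdown, read 11.96, 12.21, 12.94 and 12.29 against 13.70, 13.19, 13.65, 13.34 and 12.98, or -1.02 (SE 0.21, adjusted p = 0.000732). The Khk call was lost when single libraries were left out, at -0.89 without naked replicate 1, -0.98 without naked replicate 2, -0.94 without Damaraland replicate 1 and -0.95 without Damaraland replicate 3. Slc2a8, a hexose transporter, was lower by 1.65 (SE 0.19, adjusted p = 4.38e-06), and Glyctk, which returns glycerate to glycolysis, by 1.40 (SE 0.21, adjusted p = 4.85e-05). Slc2a5, the fructose transporter, differed by -0.29 (SE 0.47) and was not called.

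Xenobiotic enzymes had the highest called share, 17 of 28 (60.7%), with 13 higher and 4 lower. Beside Hsd17b2, given above, Fmo5, a flavin monooxygenase, was lower, at 10.27, 10.57, 11.12 and 10.60 against 14.61, 14.14, 14.18, 13.99 and 13.86, or -3.52 (SE 0.19, adjusted p = 3.57e-09). Sult1c2, a sulfotransferase, was listed at 0 reads in all Damaraland livers and at 8.36, 9.33, 9.14 and 9.42 in the naked ones. Hsd17b13, a lipid droplet protein, was higher by 2.78 (SE 0.17, adjusted p = 9.27e-09), and Gstk1, a mitochondrial glutathione transferase, by 2.67 (SE 0.19, adjusted p = 4.05e-08). Cyp1a2, a major hepatic P450, differed by -0.24 (SE 0.24) and was not called. Of 69 listed genes of this kind, 29 were in the table.

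Cyp2e1, the P450 that oxidises ethanol and small solvents, had the largest SD of all genes tested in the Damaraland group, 3.83. It read 17.86, 17.75, 17.45 and 16.81 in the naked livers. In the Damaraland livers it read 8.24, 7.55, 8.55, 14.98 and 15.15 in replicates 1 to 5, so that the 3 animals of 36 months stood at 7.55 to 8.55 and the 2 of 48 months at 14.98 and 15.15. In scaled reads these were 150 to 336 against 32352 and 36305, beside 115178 to 238137 in the naked livers. The species difference was 6.58 (SE 1.44, adjusted p = 0.00114). Every naked liver was above every Damaraland liver, a condition of the rule that picked the gene. One of the animals of 48 months was the only female, replicate 3 has the conflicting age labels given above, and age was not tested within the species.

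NRF2 is the factor that raises glutathione and antioxidant genes under oxidative stress, and KEAP1 holds it down. Of 22 genes of this axis, 7 were lower in the naked mole-rat and 2 higher. Nfe2l2, which encodes NRF2, and Keap1 differed by 0.45 (SE 0.18) and 0.41 (SE 0.14), neither called. Gclm, the modifier subunit of glutathione synthesis, read 8.61, 8.36, 8.02 and 8.26 against 11.32, 10.94, 11.39, 11.52 and 10.16, or -2.75 (SE 0.24, adjusted p = 3.37e-07). Prdx1, a cytosolic peroxidase, read 8.96, 8.97, 8.83 and 9.36 against 13.22, 13.10, 13.16, 13.07 and 12.27, or -3.94 (SE 0.19, adjusted p = 1.3e-09). Gsr, which regenerates glutathione, was higher by 1.43 (SE 0.19, adjusted p = 1.74e-05), and Nqo1 and Hmox1 were not called, at -0.19 (SE 0.19) and 0.49 (SE 0.19).

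Antioxidant enzymes also divided. Of 19, 5 were higher and 3 lower. Sod1, the cytosolic superoxide dismutase, read 14.48, 14.73, 14.52 and 14.81 against 13.35, 13.12, 13.16, 13.59 and 12.88, or 1.41 (SE 0.17, adjusted p = 5.89e-06). Sod2, the mitochondrial one, was higher by 1.03 (SE 0.18, adjusted p = 0.000244) in liver and lower by 1.59 (SE 0.20, adjusted p = 3.86e-05) in heart. The Sod2 call was lost when single libraries were left out, at 0.89 without naked replicate 3 and 0.92 without Damaraland replicate 5. Gpx4, which reduces lipid peroxides, was lower by 1.30 (SE 0.17, adjusted p = 1.46e-05), at 8.94, 9.10, 8.47 and 8.53 against 10.01, 10.29, 10.02, 10.28 and 9.71. Cat, catalase, was lower by 1.04 (SE 0.17, adjusted p = 0.000108) without overlap. The Cat call was lost when single libraries were left out, at -0.998 without naked replicate 4 and -0.94 without Damaraland replicate 4. Glrx, glutaredoxin, was higher, at 12.14, 12.38, 11.46 and 12.06 against 8.68, 8.40, 8.48, 8.35 and 7.52, or 3.72 (SE 0.23, adjusted p = 1.33e-08).

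Of 20 iron genes, 3 were higher and 2 lower. Slc40a1, the iron exporter ferroportin, read 13.13, 13.35, 12.45 and 12.83 against 11.26, 11.46, 11.18, 11.41 and 11.37, or 1.60 (SE 0.17, adjusted p = 2.31e-06), and was lower in heart by 2.03 (SE 0.20, adjusted p = 4.18e-06). Slc11a2, an iron importer, was higher by 2.41 (SE 0.16, adjusted p = 1.85e-08). Ftl1, the light chain of the iron store ferritin, was lower by 1.29 (SE 0.20, adjusted p = 8.19e-05), and Id1, a target of the signal that sets hepcidin, by 2.52 (SE 0.20, adjusted p = 1.53e-07).

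Growth hormone acts on the liver to make IGF1, the main circulating growth factor. This axis gave 7 higher and 2 lower calls among 21. Igf1 read 13.83, 13.46, 13.82 and 13.44 in the naked livers and 11.94, 11.69, 11.98, 12.03 and 10.96 in the Damaraland livers, or 1.92 (SE 0.21, adjusted p = 3.14e-06). Igf2, a fetal-type growth factor that mice lose after birth, read 14.75, 14.98, 14.88 and 14.73 against 11.41, 12.26, 11.84, 12.54 and 12.36, or 2.75 (SE 0.21, adjusted p = 8.62e-08). Ghr, the growth hormone receptor, differed by -0.68 (SE 0.18, adjusted p = 0.00403) without overlap, under the size for a call. Among binding proteins, Igfbp1, which is raised in fasting, read 12.65, 11.94, 12.17 and 13.71 against 10.31, 8.64, 9.83, 9.50 and 9.15, or 3.14 (SE 0.36, adjusted p = 4.64e-06). Igfbp3, the main carrier in blood, was lower by 1.49 (SE 0.17, adjusted p = 3.33e-06). Cux2, a factor that is female-biased in mouse liver, read 9.44, 9.43, 9.42 and 9.85 in the naked livers and 4.77, 4.98, 4.90, 7.78 and 11.12 in the Damaraland livers, high in the 2 animals of 48 months. The Cux2 call was lost when single libraries were left out, at 2.86 (adjusted p = 0.0517) without naked replicate 1, 2.86 (adjusted p = 0.0509) without naked replicate 3, 2.72 (adjusted p = 0.0663) without naked replicate 4, 2.34 (adjusted p = 0.0607) without Damaraland replicate 1, 2.39 (adjusted p = 0.063) without Damaraland replicate 2 and 2.37 (adjusted p = 0.063) without Damaraland replicate 3. Its difference was 2.82 (SE 1.04, adjusted p = 0.0268).

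Of 26 insulin, mTOR and FoxO genes, 4 were higher and 6 lower. Deptor, an inhibitor within mTOR complexes, read 6.22, 6.67, 6.71 and 6.32 against 10.24, 10.72, 10.51, 11.04 and 10.81, or -4.18 (SE 0.17, adjusted p = 2.56e-10). Eif4ebp1, a translation repressor that mTOR inactivates, was higher by 1.38 (SE 0.16, adjusted p = 4.65e-06). Irs1, an adaptor below the insulin receptor, was higher by 1.19 (SE 0.19, adjusted p = 8.2e-05), and Insr differed by -0.77 (SE 0.14, adjusted p = 0.000264), under the size for a call. Circadian clock genes gave 7 lower and 1 higher call among 18; the hour of sampling is not given in the sources used here. Rora, an activator of the clock, was lower by 2.17 (SE 0.20, adjusted p = 4.85e-07), Csnk1d, a kinase of period proteins, by 2.20 (SE 0.16, adjusted p = 5.59e-08), and Cry1, a repressor, was higher by 1.08 (SE 0.13, adjusted p = 8.92e-06). Dbp, an output gene, was lower by 1.51 (SE 0.51, adjusted p = 0.0189), with naked replicate 3 lowest in 5.22 to 8.19. The Dbp call was lost when single libraries were left out, at -0.90 (adjusted p = 0.0553) without naked replicate 3.

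Hypoxia genes are of interest because both species live in burrows. Of 17 tested, 3 were higher and 2 lower, 29.4% against 34.9%. Egln3, an oxygen-sensing hydroxylase, read 6.89, 6.54, 6.70 and 6.84 against 5.05, 5.21, 4.90, 5.16 and 4.76, or 1.72 (SE 0.15, adjusted p = 3.53e-07). P4ha2, of collagen hydroxylation, was lower by 1.66 (SE 0.17, adjusted p = 1.35e-06). Hif1a, the oxygen-labile HIF subunit, differed by -0.997 (SE 0.14, adjusted p = 2.99e-05) without overlap and missed the size for a call.

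Transcripts of the mitochondrial genome stood far apart in these livers. The 12 mt- genes together took 6.2% ± 0.924 (SD, n = 4) of reads in the naked livers, 4.93% to 7.08%, and 0.00894% ± 0.00609 (SD, n = 5) in the Damaraland livers, 0.00339% to 0.0172%. The exact two-sided permutation p was 0.0159, the smallest that 4 against 5 libraries can give. This is 519 to 2010 reads per Damaraland library against 875599 to 1265282 per naked library. Guinea pig livers held 4.04% to 4.26% and mouse livers 2.88% to 5.74%, so that the Damaraland value is the one apart. For mt-Co1, a catalytic subunit of cytochrome oxidase, the Damaraland libraries held 121 to 574 reads and the naked ones 229771 to 368230. In heart the Damaraland libraries were again low, at 0.00565% to 0.0279% of reads, against 22.7% to 26.9% in the naked hearts. The mt- reads are given as listed, since the mitochondrial reference of each species is not given in the sources used here.

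The other subunits of the respiratory chain come from nuclear genes. Of 73 of these, 22 were higher in the naked mole-rat and 6 lower, with a median difference of 0.25 against -0.03. Cox8a, a small subunit of cytochrome oxidase, read 12.80, 13.20, 13.12 and 13.03 against 9.56, 9.32, 9.42, 9.76 and 8.88, or 3.65 (SE 0.17, adjusted p = 7.86e-10). Ndufb2, of complex I, was higher by 2.68 (SE 0.20, adjusted p = 5.53e-08). Cox7c was lower by 3.25 (SE 0.36, adjusted p = 2.75e-06), and Ndufab1, an acyl carrier subunit of complex I, had 3 reads over the 4 naked livers and 1169 over the Damaraland ones. In heart 27 of the 73 were lower in the naked mole-rat, 3 higher and the rest not called, beside 1511 lower and 1424 higher of the 10039 genes tested in both tissues. The difference between tissues was not tested. Of 35 genes that copy, read and supply the mitochondrial genome, 7 were higher and 3 lower. Twnk, the mitochondrial helicase, read 5.55, 4.29, 5.68 and 5.75 against 8.73, 8.37, 8.58, 8.57 and 8.25, or -3.18 (SE 0.26, adjusted p = 1.65e-07). Mterf3, a repressor of mitochondrial transcription, was higher by 1.93 (SE 0.15, adjusted p = 1.12e-07), and Tfam, which packages the genome, stood higher by 0.44 (SE 0.12, adjusted p = 0.00681), under the size for a call.

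Ribosomal proteins build the 2 subunits of the cytosolic ribosome. Of 68 tested, 19 were higher and 3 lower, and the median difference was 0.71 against -0.03 over all genes. The 3 lower ones were Rpl4, Rpl8 and Rps13, all listed at or near 0 reads in the naked livers. Rpl23 read 12.31, 12.48, 12.38 and 11.97 against 8.64, 9.05, 8.73, 9.10 and 8.57, or 3.47 (SE 0.16, adjusted p = 5.04e-10), and Rpl22 was higher by 1.94 (SE 0.13, adjusted p = 1.98e-08). Ribosomal protein genes often have near-identical pseudogene copies in mammals, and reads shared with such copies were not measured here. Proteasome subunits had the lowest called share of the 30 lists, 4 of 37, and a median difference of -0.06. Psmb10, an inducible subunit of the immunoproteasome, was higher by 1.24 (SE 0.22, adjusted p = 0.000198), and Psme4, a proteasome activator, lower by 1.19 (SE 0.14, adjusted p = 4.5e-06). Of 31 chaperone genes, 7 were called. Beside Hsp90aa1 and Dnaja1, Hspb8, a small heat shock protein, was lower by 1.59 (SE 0.17, adjusted p = 1.81e-06). Hsp90ab1, the constitutive HSP90, differed by 0.04 (SE 0.17).

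Interferon and innate sensing genes gave 9 higher and 2 lower calls among 23. Irf7, the factor that amplifies type I interferon, read 10.04, 9.60, 9.46 and 10.66 in the naked livers and 6.59, 5.94, 5.76, 6.23 and 5.89 in the Damaraland livers, or 3.85 (SE 0.24, adjusted p = 1.28e-08). Usp18, which restrains interferon signalling, read 8.16, 8.12, 6.65 and 8.96 against 4.88, 4.91, 4.90, 5.42 and 5.10, or 2.93 (SE 0.34, adjusted p = 5.26e-06). Dhx58, a regulator of RNA sensing, was lower by 1.45 (SE 0.19, adjusted p = 1.46e-05), and Tapbp, which loads peptides on class I molecules, by 1.79 (SE 0.18, adjusted p = 1.2e-06). In heart Irf7 differed by 0.50 (SE 0.19) and Usp18 by -0.36 (SE 0.25), neither of them called.

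Hyaluronan, p53, cell cycle and collagen genes are often discussed for the naked mole-rat. Of 10 hyaluronan genes, 3 were called. Stab1, a scavenger receptor of sinusoidal endothelium, was lower, at 8.06, 7.87, 7.83 and 8.61 against 11.83, 11.99, 11.75, 11.70 and 11.92, or -3.75 (SE 0.16, adjusted p = 3.59e-10). Cd44, the hyaluronan receptor, stood higher by 0.80 (SE 0.15, adjusted p = 0.000369), under the size for a call. Of 21 p53 pathway genes, 3 were higher and 2 lower. Trp53, which encodes p53, read 8.76, 8.95, 8.23 and 8.66 against 7.67, 7.50, 7.35, 7.63 and 7.45, or 1.13 (SE 0.16, adjusted p = 2.44e-05). Mdm2, which degrades it, read 5.01, 5.05, 4.89 and 4.96 against 8.90, 8.71, 8.81, 8.95 and 8.59, or -3.82 (SE 0.13, adjusted p = 3.6e-11), near the minimum in every naked liver. In heart the 2 genes differed in the same directions, by 1.03 (SE 0.21) and -2.45 (SE 0.19). Cdkn1a, a growth arrest target of p53, differed by 0.18 (SE 0.30) and was not called.

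Cell cycle genes were called in 5 of 19 cases. Mcm6, of the replication helicase, was higher by 2.23 (SE 0.23, adjusted p = 1.55e-06), and Tpx2, a spindle factor, lower by 1.65 (SE 0.17, adjusted p = 2e-06). Collagens and their crosslinking enzymes gave 7 lower and 4 higher calls among 23. Col12a1 read 10.39, 9.14, 10.31 and 9.58 against 6.78, 6.65, 7.01, 7.02 and 7.22, or 2.92 (SE 0.24, adjusted p = 1.5e-07). Plod2, which hydroxylates collagen for crosslinks, was lower by 3.44 (SE 0.16, adjusted p = 7.35e-10), and Col16a1 by 3.05 (SE 0.21, adjusted p = 2.74e-08).

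Markers of other liver cell types were measured in the same libraries. In bulk tissue, fewer cells of a type and less RNA per cell cannot be told apart. A sum of scaled reads weighs each marker by its reads, so 1 abundant gene can carry it. Alb alone averaged 1915834 scaled reads in the naked and 1604914 in the Damaraland livers. Summed scaled reads of 11 hepatocyte markers ran from 2178327 to 3563096 in the naked and from 1854094 to 2631332 in the Damaraland livers, with 2 markers higher and 0 lower. The 8 cholangiocyte markers in the table summed to 3657 to 4325 against 2292 to 3034, and of the 6 tested 3 were higher and 2 lower. Epcam, a surface protein of bile duct cells, read 11.42, 11.32, 10.91 and 11.04 against 6.52, 5.84, 6.95, 6.60 and 6.12, or 4.76 (SE 0.21, adjusted p = 3.99e-10). It made up a large part of the naked sum and little of the Damaraland sum, so the higher naked sum rested on this gene. Krt19, a bile duct keratin, differed by 0.87 (SE 0.35) and was not called. Spp1, a secreted phosphoprotein of bile ducts, was lower by 1.40 (SE 0.22, adjusted p = 8.8e-05). The cholangiocyte markers therefore did not move together.

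Macrophage markers in the table summed to 3076 to 6605 in the naked and 1790 to 3752 in the Damaraland livers, and of 5 tested 2 were higher and 1 lower. Cd5l, secreted by Kupffer cells, read 10.75, 10.71, 10.14 and 10.83 against 9.23, 7.75, 6.81, 7.48 and 7.33, or 2.89 (SE 0.37, adjusted p = 1.2e-05), while Cd68 was lower by 1.59 (SE 0.21, adjusted p = 1.82e-05). Endothelial markers summed to 13729 to 17647 against 13148 to 15195, with 2 of 12 higher and 2 lower. Stellate and fibroblast markers summed to 12935 to 17482 against 10174 to 14207, and of 11 tested 2 were higher and 0 lower, with differences from -0.47 to 2.46. The highest was that of Lrat, which stores vitamin A in stellate cells and read 10.23, 10.93, 9.37 and 9.22 against 7.69, 7.94, 6.75, 7.67 and 7.31, or 2.46 (SE 0.33, adjusted p = 1.69e-05). Neutrophil markers summed to 395 to 799 against 519 to 1048, erythroid markers to 129 to 178 against 41 to 118, and lymphocyte markers to 124 to 184 against 92 to 155. The part of these cell types in the differences above was not tested.

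The hearts of the same 2 species, 3 naked and 5 Damaraland libraries, show how far the liver differences recur in another tissue. Naked heart replicate 3 was shallow, with 4089633 reads against 19096882 and 22526618 in replicates 1 and 2. Its mean Spearman correlation with its group was 0.9556, against 0.9728 and 0.9725. How far this library shaped the heart calls was not tested. In heart 3192 of 10627 genes were called (30%). Of 3329 liver calls that were tested in heart, 1391 were called there in the same direction, 147 in the opposite direction and 1791 not at all. The shared calls are 41.8% of those liver calls and 47.4% of the 2935 heart calls tested in liver. By their labels, 2 naked and 4 Damaraland animals gave both tissues, so that the tissues are not independent. Genes made by hepatocytes were also higher in the naked hearts, with 10 of 11 hepatocyte markers called higher and 1 lower. Alb read 13.09 to 14.68 in the naked hearts and 10.58 to 12.19 in the Damaraland hearts, and the part of this in the heart differences of liver genes was not tested.

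Among the largest liver differences the pattern divided. Cxcl12, Arhgef12, Cnot1 and Epn1 differed by 4 or more in both tissues. Cxcl12 read 11.14 to 11.78 in the naked hearts and 6.53 to 7.30 in the Damaraland hearts, or 4.43 (SE 0.22, adjusted p = 1.61e-08). Car3 and Crym were called in heart at much smaller sizes, 1.18 (SE 0.44, adjusted p = 0.0375) and 1.71 (SE 0.22, adjusted p = 4.29e-05). Gys1, Pck2, Apoa2, Pon3 and Gfra1 were not called in heart. Acacb, 5.56 in liver, was -0.57 (SE 0.22) in heart, and Cyp7b1, 6.24 in liver, was -0.90 (SE 0.18). Liver and heart values come from tables normalised separately, so only differences within a tissue are set side by side, and the difference between tissues was not tested.

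The widest reversals between tissues, chosen after their values were seen, were Mdga2 and S100b. Mdga2, a membrane-anchored protein of synapses, read 4.29, 4.29, 4.59 and 4.29 in the naked livers and 9.57, 9.23, 9.34, 9.51 and 9.79 in the Damaraland livers, or -5.12 (SE 0.15, adjusted p = 8.15e-12). In heart it was higher in the naked mole-rat by 4.02 (SE 0.20, adjusted p = 1.77e-08). S100b, a calcium-binding protein of glia and fat, read 11.08, 11.69, 11.48 and 10.55 against 7.03, 7.25, 6.88, 6.76 and 6.44 in liver, or 4.33 (SE 0.22, adjusted p = 2.13e-09). In heart it was lower by 3.60 (SE 0.27, adjusted p = 3.97e-07).

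**Figure D5:**
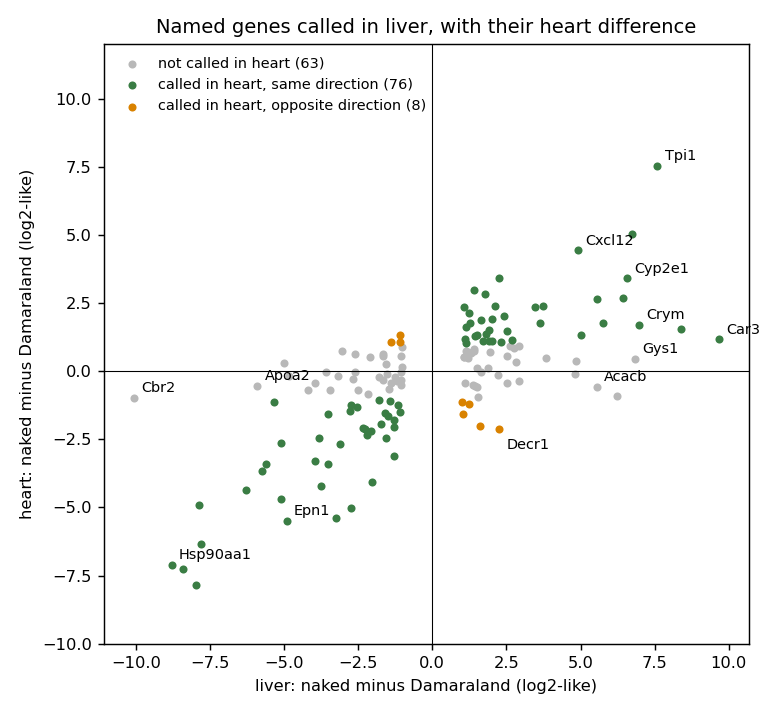
Each point is a gene named by the rule described under processing, called in liver and tested in heart: the horizontal axis is the liver difference and the vertical axis the heart difference, both naked minus Damaraland on each table's log2-like scale. Green points (76) were called in heart in the same direction, orange points (8) in the opposite one and grey points (63) not at all.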

How the data were processed

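Liver and heart RNA was sequenced after ribosomal RNA depletion, per the labels' protocols. The submitters' processing notes name cutadapt, Salmon, DESeq2 and the mouse build GRCm38, with no role stated, and the annotation of each species is not given in the sources used here. The authors deposited variance-stabilised log2-like values, 1 table per tissue, with 13928 mouse gene identifiers, 13921 of which matched a symbol. The tables hold 26 further columns of per-sample values, matched to no sample here and not used. Inverting the transform gave whole reads for 100% of values (tolerance 0.001), which served for depth, scaled reads (reads over each library's size factor) and 1 alternative.

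From these values, limma 3.58.1 (R 4.3.3) with an empirical Bayes trend compared the 4 naked and 5 Damaraland livers, with Benjamini-Hochberg adjustment over 10822 genes. A call needed an adjusted p under 0.05 and a difference of at least 1. Shares were compared by an exact permutation test. P-values measure the spread between animals. In the test on simulated data of this comparison, 200 of 11046 genes were changed. The changed genes were drawn only from those above a cut on mean reads. All genes were given the same spread between animals beyond counting noise, unlike the genes of these livers. There all 4-fold changes were called (100%), and 0% of unchanged genes were called. Of the 2-fold changes, 91% passed the adjusted p and 28% were called. Whether these shares hold in the livers, rare genes included, where 3772 of 10822 genes were called, was not tested.

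The members, the 30 gene lists and the tests were chosen with earlier results of these data known. Named genes were the 12 largest calls per direction with both species above the minimum and no overlap, the 5 largest per direction with 1 species near the minimum, up to 2 calls per direction and list, and 92 standing genes of the lists. Apoa4, Angptl8, Insig1, Lss, Mvd, Ebp, Hsd17b7, Idi1, Acaca, Elovl5, Fads1, Me1, Amacr, Abcc3, Hsd17b13, Gstk1, Hsp90ab1, Rps13, Mdga2, S100b, Afp, Kif4, Gadd45g, Slc25a25, Slc13a4 and Lrrc4b were added after their values were seen. Of 961 listed genes, 822 were in the table, and 5 symbols were respelled to match it. Some genes that the rule names are not reported here.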

Additional observations from a re-analysis of the deposited data

Results flagged for a closer look

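Within a species, 33 values of named genes lay away from the others of their group by more than Dixon's 95% limit, among 382 groups looked at, where chance gives about 1 in 20, or 19. That number is only a rough guide, since all groups come from the same 9 libraries and Kif4 and Lrrc4b were chosen for their wide spread. For Ywhae and Mdga2 the naked value apart was the only one above the minimum. Naked replicate 3 was high for Moxd1 (14.29, the others 13.91 to 13.95), Rxra (11.50, 11.08 to 11.10), Amacr (13.56, 11.98 to 12.18), Pygl (13.72, 13.13 to 13.21), Irs1 (11.66, 10.94 to 11.02) and Mdga2 (4.59, 4.29 in the others). It was low for Onecut2 (9.35, 9.91 to 9.93), Slc2a8 (7.08, 7.72 to 7.79) and Cd5l (10.14, 10.71 to 10.83). Naked replicate 1 was apart for Ywhae (4.61), Hnf4a (13.69, 13.30 to 13.35), Kif4 (4.75, 8.05 to 8.44), Cbr2 (4.29, 5.07 to 5.21) and Arg1 (15.14, 15.76 to 15.87). Naked replicate 2 was high for Gfra1 (6.27, 5.88 to 5.92), Apoa2 (11.01, 10.05 to 10.19) and Ebp (9.94, 9.22 to 9.29) and low for Twnk (4.29, 5.55 to 5.75). Naked replicate 4 was high for Pck1 (14.87, 13.39 to 13.64) and Cux2 (9.85, 9.42 to 9.44).

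Damaraland replicate 5 was low for Ywhae (12.04, 12.37 to 12.48), Hsd3b7 (11.34, 12.01 to 12.10), Sds (9.11, 10.63 to 11.06), Prdx1 (12.27, 13.07 to 13.22) and Sod2 (12.04, 12.51 to 12.65) and high for Gys1 (7.88, 6.61 to 6.80) and Lrrc4b (11.28, 5.67 to 7.22). Damaraland replicate 4, the only female, was low for Srebf1 (11.00, 12.42 to 12.81), Elovl6 (13.21, 14.14 to 14.46) and Hif1a (10.71, 10.95 to 11.01) and high for Apom (11.43, 9.59 to 9.96). Replicate 1 was high for Mcm6 (8.12, 6.96 to 7.22) and replicate 2 for Cd68 (9.93, 8.88 to 9.18).

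Among the 187 genes named in the text, 13 reversed between tissues without overlap. For these every naked liver lay on 1 side of every Damaraland liver and every naked heart on the other side of every Damaraland heart. Mdga2 and S100b had been added as the widest reversals, and such reversals were not counted over all genes. Of all 3329 liver calls tested in heart, 147 were called there in the opposite direction. The difference between the tissues was not tested. The liver and heart differences were 6.24 and -0.90 for Cyp7b1, -2.04 and 2.68 for Angptl8, 2.25 and -2.12 for Decr1, 1.45 and -0.54 for Pgk1, and -1.65 and 0.63 for Slc2a8. They were -1.40 and 1.06 for Glyctk, 1.03 and -1.59 for Sod2, 1.60 and -2.03 for Slc40a1, and -1.66 and 0.56 for P4ha2. They were 0.44 and -0.53 for Tfam, 1.24 and -1.19 for Psmb10, -5.12 and 4.02 for Mdga2, and 4.33 and -3.60 for S100b.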

How the results depend on the processing

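The 3772 calls became 7451 (3616 higher, 3835 lower in the naked mole-rat) with no size threshold, 2202 (1059 higher, 1143 lower) when tested against a difference of 1, and 2436 (1168 higher, 1268 lower) among genes at least 3 above the minimum; these settings change the threshold or the number of genes tested. Leaving out each library in turn gave 3782 to 3830 calls, with 1803 to 1836 higher and 1963 to 2003 lower. Centring gave 1920 higher and 1877 lower, and quantile normalisation 1896 and 1886, so that the slight excess of lower calls turned; before centring the shift of the median of all genes was -0.035. Fitting all 14 livers gave 3772 calls, voom on the recovered reads 4687, no filter 3956, a filter in each species 3065, robust variance 3756, sample weights 3806 and no variance trend 3772. With the replicate block the count was 3800. Libraries with shared numbers 1 to 4 come from different species, and their deviations correlated at -0.112, 0.106, 0.085 and -0.146. Pairs with different numbers correlated at -0.102 to 0.178. These correlations cannot settle whether equal numbers mark a shared preparation, which the labels do not give. Of 193 called genes with a value recomputed, 0 changed direction under any setting; 4 lost the call with centring, 5 with quantile normalisation, 8 with the block, 54 against a difference of 1, and 18 without 1 library or another. The mt- share differed by 5.9 to 6.61 percentage points without single libraries, beside 6.19. Of the 30 lists, the count of calls moved by over 1.5 times in 22 with no size threshold, 24 against a difference of 1, 5 among genes at least 3 above the minimum, 1 with the filter in each species and 0 under the other settings. Depth limits rare genes, where the scale shrinks differences and few reads stand behind a value. Age and species coincide, and 1 animal's age differs between its liver and heart labels.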

Other observations

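Several genes varied widely between animals of 1 species, where the median SD over the genes tested was 0.23 in each species. These genes were chosen after their values were seen. In the naked mole-rat Afp, the fetal counterpart of albumin, read 10.80, 11.46, 6.29 and 9.55 in replicates 1 to 4, and all 5 Damaraland livers lay at 5.17 to 5.45. Kif4, a kinesin of dividing cells, read 4.75, 8.44, 8.16 and 8.05, with replicate 1 just below the Damaraland range of 4.90 to 5.22. Gadd45g, a stress-induced gene, read 6.58, 5.76, 6.61 and 9.17, with replicate 4 within the Damaraland range of 8.88 to 9.50. Slc25a25, a mitochondrial carrier of adenine nucleotides, read 9.39, 7.80, 9.13 and 12.34, highest in the same animal.

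In the Damaraland mole-rat Slc13a4, a sulfate carrier, read 11.11, 5.76, 6.10, 5.91 and 11.24, high in replicates 1 and 5. Lrrc4b, a synaptic adhesion protein, read 6.16, 5.67, 7.22, 6.09 and 11.28, highest in replicate 5. By their liver labels, both animals of 48 months exceeded all 3 of 36 months by over 2 for 2 of the 10822 genes tested, Cyp2e1 (by 6.44) and Cux2 (by 2.80), and lay below them by that much for 0 genes. With 3 animals against 2, of which 1 is the only female, no test was made. In scaled reads Cux2 stood at 2.23, 4.6 and 3.58 in the younger animals and at 182 and 2183 in the older ones.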
